A study of Ovis aries with 16 samples.

Results

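The genes described here are 10 genes of the circadian clock, PER1, PER2, PER3, CRY1, CRY2, NR1D1, NR1D2, BHLHE40, CLOCK and DBP, taken by symbol from the 28524 genes of a count table of sheep fat. All 10 had a row in the table, and all 10 passed the filter on low counts in every comparison. The table holds 16 libraries in 4 groups of 4, namely visceral BPA, visceral control, subcutaneous BPA and subcutaneous control. BPA ewes were born to mothers given daily injections of bisphenol A, a plastics chemical with weak oestrogen-like action, at 0.5 mg/kg from day 30 to day 90 of a pregnancy with a term of about 147 days. Mothers of control ewes received the corn oil vehicle alone. All of the ewes were kept on a maintenance diet and had fat taken at about 21 months of age, in the follicular phase, 24 h after cycles had been synchronized by prostaglandin F2α given on 2 occasions 11 days apart. Visceral fat was mesenteric, from around the rumen, and subcutaneous fat came from the sternal region. The hour of the day at collection is not given in the sources used here. Libraries are named by the number in their title. The labels do not say that a number is a single animal, so p-values measure the spread between these libraries.

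The clock is a feedback loop of transcription that runs in nearly every cell with a daily period. CLOCK pairs with ARNTL (also called BMAL1), and the pair switches on the PER and CRY genes, the nuclear receptors NR1D1 and NR1D2 (REV-ERBα and REV-ERBβ), the repressor BHLHE40 (DEC1) and the output factor DBP. PER and CRY proteins return to the nucleus and silence the pair, while NR1D1 and NR1D2 silence ARNTL. In fat of rodents and people the clock is known for its daily timing of lipid breakdown, lipid synthesis and adipokine release, and PER1 is also a direct target of glucocorticoids.

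Library totals were 6.77 to 14.3 M counts in visceral BPA, 11.0 to 13.1 M in visceral control, 3.05 to 4.83 M in subcutaneous BPA and 4.74 to 6.22 M in subcutaneous control libraries. Every member had at least 40 counts in each library. Visceral BPA 977 stood apart on the second principal component, and subcutaneous controls 902 and 924 on the third. Values without those 3 libraries, a set chosen after seeing the data, are given beside the results that rest on them. Subcutaneous BPA 922 was not in that set, though it had the largest score on the first component (69.47). On the third it lay at -42.25, opposite controls 902 (53.54) and 924 (51.89). All 15 adipocyte markers were detected in every group, and their summed level was 20984 to 33683 CPM in visceral BPA, 26370.5 to 38939 in visceral control, 18680 to 32341 in subcutaneous BPA and 14716 to 29882 in subcutaneous control libraries. CPM is the count divided by the TMM-scaled library total in M.

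Levels of the members spread over a wide range in every group. Per kilobase of the deposited gene length, PER1 and DBP held the top 2 places in each group and CRY1 the lowest. PER1, a repressor arm gene that also responds to acute signals, averaged 48.4 ± 11.9 CPM per kb in visceral BPA, 36.3 ± 5.53 in visceral control, 71.6 ± 18.4 in subcutaneous BPA and 41.5 ± 13.5 in subcutaneous control fat (SD, n = 4 each). DBP, a PAR bZIP factor that passes clock timing on to metabolic genes, averaged 48.0 ± 17.9, 41.3 ± 9.42, 54.8 ± 5.17 and 47.1 ± 9.47 CPM per kb in the same order of groups. Neighbours in the order overlapped at most steps. CRY1, a repressor that binds the CLOCK pair, lay apart below PER3 in all 4 groups, at 2.52 ± 0.642 CPM per kb in visceral BPA, 2.61 ± 0.581 in visceral control, 3.63 ± 1.06 in subcutaneous BPA and 3.10 ± 0.454 in subcutaneous control libraries. Among the 14793 genes that passed the filter over all 16 libraries, CRY1 stood at percentile 23.8 to 30.5 of levels per kb, while DBP stood at 89.1 to 92.8. PER3 was second from the bottom in each group, from 5.11 ± 1.36 CPM per kb in visceral BPA to 11.4 ± 5.06 in subcutaneous BPA. Places in the middle differed between depots. BHLHE40 stood at rank 8 of the 10 in visceral control fat with 13.3 ± 1.99 CPM per kb, and at rank 4 in subcutaneous control fat with 32.9 ± 4.75 CPM per kb.

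**Figure D1:**
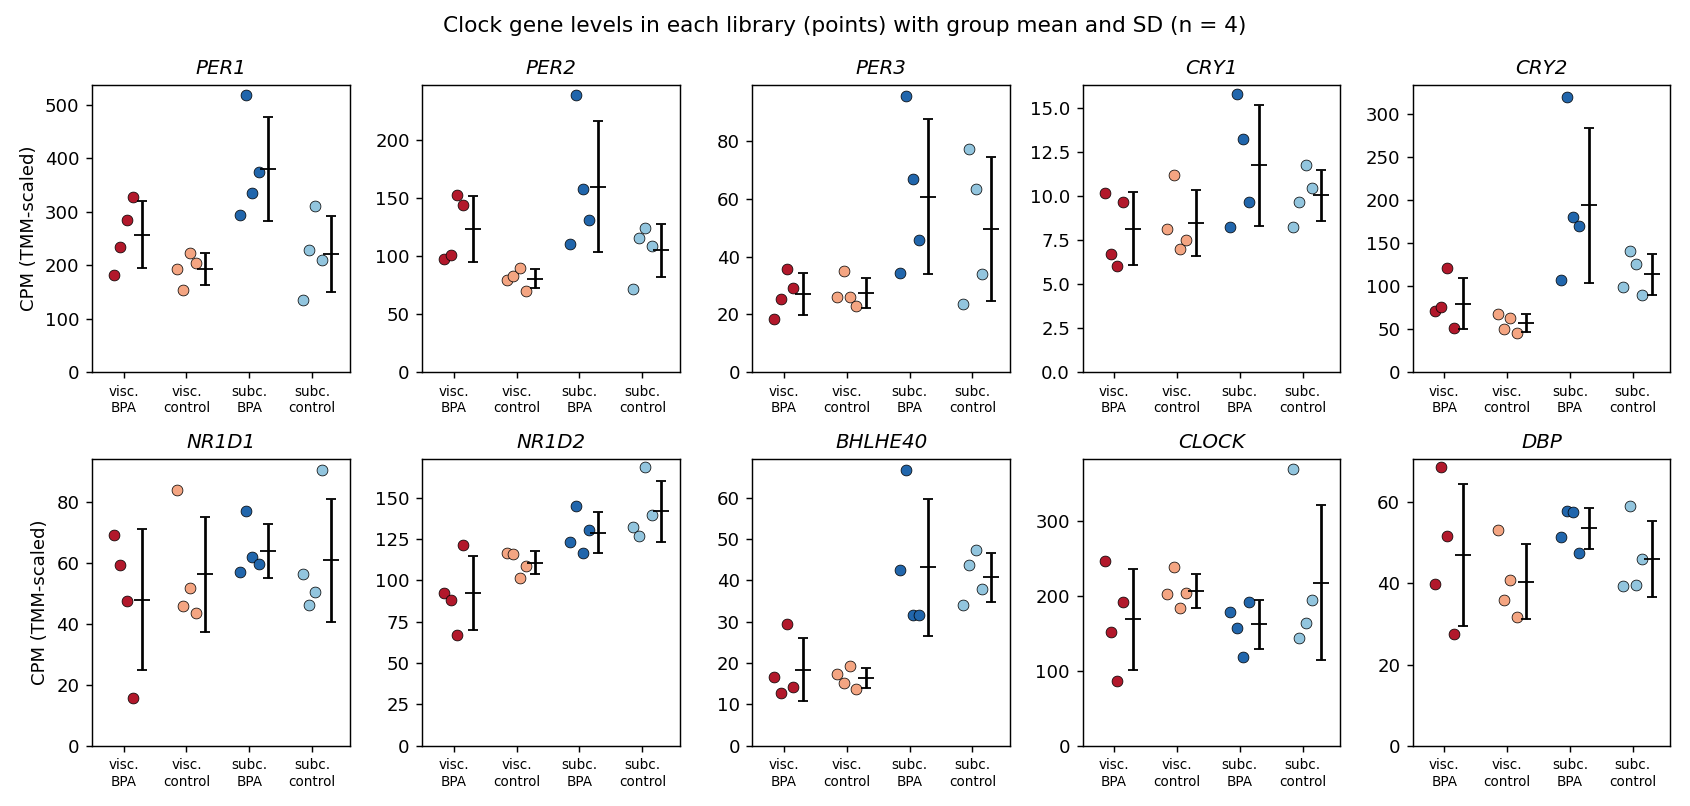
Level of each of the 10 clock genes in every library, as CPM of the TMM-scaled total on a linear axis from 0. Points are the 4 libraries of each group and the bars beside them are the group mean ± SD. BHLHE40 and CRY2 of both visceral groups lie mostly under both subcutaneous groups, and subcutaneous BPA 922 is the top point of its depot for 6 of the 10 genes.

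The comparison of visceral with subcutaneous fat in control ewes asks how the clock genes differ between depots without BPA. BHLHE40 and CRY2 were lower in visceral fat, by 2.47-fold and 2.002-fold, and no member was higher. BHLHE40, a bHLH repressor that competes with the CLOCK pair for its E-box sites, had 17.4, 15.2, 19.3 and 13.8 CPM in visceral controls 902, 908, 924 and 928, against 34.2, 43.6, 47.4 and 37.9 CPM in subcutaneous controls 902, 924, 928 and 931. Every visceral library lay under every subcutaneous one, with a log2 fold change of -1.31 ± 0.17 (SE; edgeR quasi-likelihood test, adjusted p = 0.00104). CRY2, the other cryptochrome repressor, had 67.4, 49.5, 63.1 and 45.7 CPM in the same visceral controls, against 98.1, 140.1, 125.9 and 89.0 CPM in the subcutaneous controls. These groups did not overlap either, and the log2 fold change was -1.002 ± 0.18 (adjusted p = 0.00651). Without subcutaneous controls 902 and 924 both genes were still called, BHLHE40 at -1.39 (adjusted p = 0.00361) and CRY2 at -0.94 (adjusted p = 0.0237). The 2 members called make 20% of the list, beside 13.3% of the 14456 genes tested that were called in either direction and 6.16% that were called lower. In whole tissue, fewer cells of a type and less RNA per cell cannot be told apart.

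The other 8 members did not pass the main test in control ewes, which used no block for the title number. PER3, a period protein outside the essential core of the mouse clock, had 25.9, 35.0, 25.9 and 22.7 CPM in the visceral controls, against 23.7, 77.1, 63.4 and 33.8 CPM in the subcutaneous controls. Subcutaneous control 902 was as low as visceral fat, so the groups overlapped, and the log2 fold change of -0.85 ± 0.32 had an adjusted p of 0.105. With the title number as a fixed block PER3 passed the test (log2 -1.01, adjusted p = 0.0360), but with the number as a random block in limma voom it did not (log2 -0.77, adjusted p = 0.105). It also passed without subcutaneous control 902 (log2 -1.08, adjusted p = 0.0255). PER2, a core period repressor, had a log2 fold change of -0.38 ± 0.17 (adjusted p = 0.170) and passed, among the alternatives run, only when subcutaneous control 902 was left out (log2 -0.53, adjusted p = 0.0311). NR1D2 had 117, 116, 102 and 109 CPM in the visceral controls, against 132, 127, 169 and 140 CPM in the subcutaneous controls. Its groups did not overlap, yet the difference was small (log2 -0.35 ± 0.13, adjusted p = 0.0918). Log2 fold changes of PER1, CRY1, NR1D1, CLOCK and DBP ran from -0.24 to -0.07, with adjusted p from 0.503 to 0.891. All 10 estimates were below 0, beside 50.6% of all genes tested, with a median of -0.30 beside -0.01 for all genes. Leaving out subcutaneous control 902 turned the estimate of CLOCK to 0.31. Groups did not overlap for 3 members, all lower in visceral fat, beside 9.74% of all genes.

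The same comparison in BPA ewes asks how the depots differ after exposure, in other libraries. BHLHE40, CRY2 and PER3 were lower in visceral fat of BPA ewes, by 2.36-fold, 2.44-fold and 2.24-fold. BHLHE40 had 16.8, 12.9, 29.6 and 14.3 CPM in visceral BPA 910, 918, 977 and 984, against 42.5, 66.7, 31.7 and 31.7 CPM in subcutaneous BPA 918, 922, 941 and 977. It was the only member whose groups did not overlap here (log2 -1.24 ± 0.32, adjusted p = 0.0382). CRY2 had 71.0, 75.8, 120.3 and 51.1 CPM in visceral BPA, against 106, 320, 179 and 169 CPM in subcutaneous BPA. Visceral BPA 977 reached above subcutaneous BPA 918, and the log2 fold change was -1.29 ± 0.34 (adjusted p = 0.0407). PER3 had 18.4, 25.3, 35.7 and 29.0 CPM in visceral BPA, against 34.5, 95.6, 67.0 and 45.8 CPM in subcutaneous BPA. Overlap was again between visceral BPA 977 and subcutaneous BPA 918, and the log2 fold change was -1.16 ± 0.31 (adjusted p = 0.0432). The 3 called members stand beside 9.07% of 13782 genes called in either direction and 3.94% called lower, and the single member without overlap beside 9.03% of genes that were lower without overlap. Genes called lower in both control and BPA ewes made 2.0% of the 13657 genes tested in both, and BHLHE40 and CRY2 were among them.

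The calls in BPA ewes lay close to the threshold. Without visceral BPA 977 the 3 genes kept their calls and the changes were larger, at log2 -1.56 for BHLHE40 (adjusted p = 0.00854), -1.56 for CRY2 (0.0151) and -1.32 for PER3 (0.0252). Omission of any of visceral BPA 910, 918 or 984, or of subcutaneous BPA 922 or 941, ended all 3 calls, and adjusted p then ran from 0.0585 to 0.132. Omission of subcutaneous BPA 918 ended the call of BHLHE40 (adjusted p = 0.0729), and omission of subcutaneous BPA 977 ended those of CRY2 (0.0680) and PER3 (0.0563). Among omissions of single libraries the smallest changes came without subcutaneous BPA 922, where the log2 fold change was -0.95 for BHLHE40, -0.93 for CRY2 and -0.86 for PER3. With the title number as a fixed block, which rests on numbers 918 and 977, none of the 3 was called and CRY2 was at -0.49. For the other 7 members adjusted p ran from 0.120 to 0.915. PER1 had a log2 fold change of -0.57 ± 0.23 (adjusted p = 0.141), NR1D2 of -0.49 ± 0.18 (adjusted p = 0.120) and CLOCK of 0.06 ± 0.28, the only estimate above 0. The median of the 10 was -0.50, beside 0.02 for all genes tested, and 9 estimates were below 0, beside 48.0% of all genes.

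**Figure D2:**
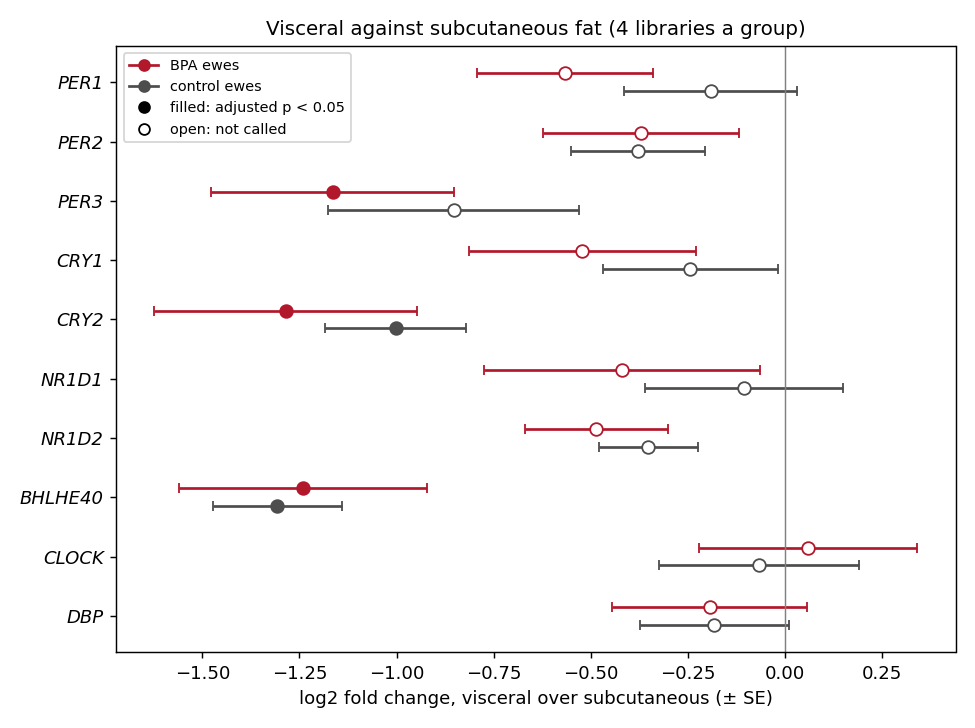
Log2 fold change of visceral over subcutaneous fat for each clock gene in BPA ewes and in control ewes, with bars of ± SE from 4 libraries a group. Filled points passed an adjusted p of 0.05. BHLHE40 and CRY2 are filled in both and lie between -1.31 and -1.002, PER3 is filled in BPA ewes, and CLOCK lies near 0.

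Marker genes of other cell types also differed between depots, and their part in these differences was not tested. The 8 mesothelial markers summed to 28.1 to 312 CPM in visceral BPA and 50.02 to 112 CPM in visceral control libraries, against 0.825 to 2.94 CPM in subcutaneous BPA and 2.05 to 4.83 CPM in subcutaneous control libraries, with LRRN4 at 0 in both subcutaneous groups and CALB2 at 0 in visceral BPA. Skeletal muscle markers, of which 7 of 8 were in the table, summed to 11.5 to 79.2 CPM in visceral BPA and 14.9 to 22.7 CPM in visceral control libraries, against 43.1 to 963 CPM in subcutaneous BPA and 34.9 to 77.6 CPM in subcutaneous control libraries. CKM and MYH2, a muscle creatine kinase and a fast myosin, were at 0 in both visceral groups, and MYLPF was at 0 in visceral control fat. CKM and MYLPF were also at 0 in subcutaneous control libraries. Stromal progenitor markers, all 8 detected, summed to 2127 to 3138 CPM in visceral control, against 4517 to 7265 CPM in subcutaneous control libraries, with 2 called lower, while the depots overlapped in BPA ewes. The 4 lymph node stroma markers, with CXCL13 at 0 in both control groups, summed to 26.2 to 35.8 CPM in visceral control, against 48.2 to 80.7 CPM in subcutaneous control libraries, with 2 called lower, and overlapped in BPA ewes. Macrophage and monocyte markers had the depots apart in BPA ewes, at 571 to 1217 CPM in visceral BPA, against 339 to 547 CPM in subcutaneous BPA libraries, with 4 of 10 called higher, and overlapped in control ewes, where 1 was called higher. Red blood cell markers, 3 of 4 in the table, summed to 3.90 to 7.99 CPM in visceral BPA and 3.93 to 5.69 CPM in visceral control libraries, against 0.294 to 2.27 CPM in subcutaneous BPA and 1.23 to 1.87 CPM in subcutaneous control libraries, with AHSP at 0 in visceral BPA and HBB in subcutaneous BPA. Sums of adipocyte, endothelial and epithelial markers overlapped between depots, though in control ewes 4 of 15, 2 of 8 and 1 of 2 tested were called higher in visceral fat, and in BPA ewes 1 endothelial marker was. Of all 14456 genes tested in control ewes 1037 were called higher in visceral fat and 891 lower. In BPA ewes 707 of 13782 were called higher and 543 lower. A list with 1 marker called is not described by that call. Totals of visceral libraries were above those of subcutaneous ones in both treatments (p = 0.0286 each by an exact two-sided permutation test, which cannot go lower with 4 libraries a group). Thinned to the lowest library total, BHLHE40 and CRY2 stayed called in both treatments, while PER3 in BPA ewes was not called (log2 -1.11, adjusted p = 0.0631).

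For 5 title numbers a library exists in each depot, 918 and 977 of BPA ewes and 902, 924 and 928 of controls. BPA numbers were not taken as pairs, since the libraries of 977 did not match each other best (r = 0.031). The counts below are a description, with no share over all genes beside them. BHLHE40 was lower in the visceral library of all 5. Its log2 difference was -1.70 in BPA 918, -0.10 in BPA 977, -0.96 in control 902, -1.16 in control 924 and -1.76 in control 928, so BPA 977 had nearly equal levels. CRY2, CRY1 and NR1D2 were lower in the visceral library of all 5 numbers as well, with log2 differences of -1.46 to -0.49 for CRY2, -0.66 to -0.03 for CRY1 and -0.96 to -0.18 for NR1D2. PER3 was lower in 4 of 5 and slightly higher in control 902, at 25.9 CPM in visceral against 23.7 CPM in subcutaneous fat. Of the others, PER1 was lower in 4 of 5, PER2 and CLOCK in 3 of 5, and NR1D1 and DBP in 2 of 5.

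**Figure D3:**
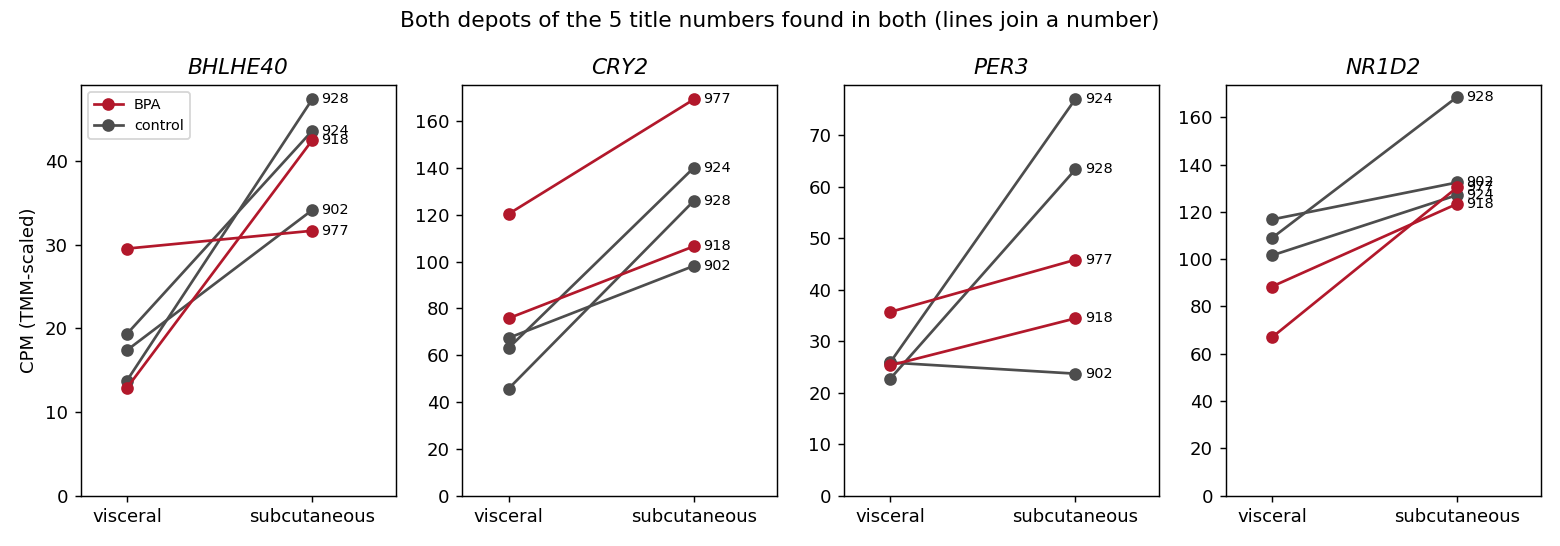
CPM of BHLHE40, CRY2, PER3 and NR1D2 in visceral and subcutaneous fat for the 5 title numbers with a library in both depots, each joined by a line. BPA numbers were not taken as pairs. All lines rise to the right for BHLHE40, CRY2 and NR1D2. For PER3 the line of control 902 is nearly flat, at 25.9 CPM in visceral and 23.7 CPM in subcutaneous fat.

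The comparison of BPA with control ewes in subcutaneous fat asks whether exposure before birth left the clock genes changed in the adult depot. None of the 10 members passed the test, beside 0.709% of the 13535 genes tested that did. PER1, CRY2 and PER2 had the largest estimates, each above 0. PER1 had 294, 518, 335 and 375 CPM in subcutaneous BPA 918, 922, 941 and 977, against 136, 228, 310 and 209 CPM in subcutaneous controls 902, 924, 928 and 931. Control 928 lay above BPA 918, so the groups overlapped, and the log2 fold change was 0.79 ± 0.25 (adjusted p = 0.205). CRY2 had 106, 320, 179 and 169 CPM in subcutaneous BPA, against 98.1, 140.1, 125.9 and 89.0 CPM in the controls. Its lowest BPA library was below the 2 highest controls (log2 0.78 ± 0.29, adjusted p = 0.274). PER2 had 110, 239, 158 and 131 CPM in subcutaneous BPA, against 71.4, 115.2, 123.9 and 108.6 CPM in the controls, with a log2 fold change of 0.61 ± 0.25 (adjusted p = 0.305).

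The log2 fold changes of the remaining 7 members lay between -0.42 and 0.29 in subcutaneous fat. CLOCK had 179, 158, 119 and 192 CPM in subcutaneous BPA, against 369, 144, 164 and 194 CPM in the controls. Control 902 was far above the rest, and the log2 fold change was -0.42 ± 0.28 (adjusted p = 0.526), or -0.04 without that library. BHLHE40 was nearly equal, with 43.1 ± 16.5 CPM in BPA and 40.8 ± 5.89 CPM in control libraries (log2 0.09 ± 0.24, adjusted p = 0.905). NR1D1 had a log2 fold change of 0.08 ± 0.21 and NR1D2 of -0.13 ± 0.13. Estimates were above 0 for 8 of 10 members, beside 49.2% of all genes, with a median of 0.22 beside -0.01. No member was without overlap, beside 7.45% of all genes. At an unadjusted p under 0.05 edgeR found 3 members, PER1, PER2 and CRY2, beside 14.2% of genes. DESeq2 also found 3 members at that threshold, beside 1986 of 13535 genes. After adjustment DESeq2 called none of the 10, as edgeR did, with PER1 at an adjusted p of 0.0688.

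The estimates in subcutaneous fat depended on single libraries. Subcutaneous BPA 922 was the highest of its depot for PER1, PER2, PER3, CRY1, CRY2 and BHLHE40, and control 902 was the lowest for PER1, PER2, PER3 and DBP. Without BPA 922 the median of the 10 was 0.017 and 5 of 10 estimates were above 0, with PER1 at 0.61, PER2 at 0.35 and CRY2 at 0.43. Without controls 902 and 924, PER1 was at 0.56 (adjusted p = 0.461), PER2 at 0.46 and CRY2 at 0.86 on the log2 scale. Several library measures moved with BPA in this depot, and their part in these values was not tested. Totals were 4.13 ± 0.763 M counts in BPA and 5.61 ± 0.729 M in control libraries (SD, n = 4 each; exact two-sided permutation p = 0.0571), and the share of counts in genes under 200 bases was 0.991 ± 0.329% in BPA and 0.386 ± 0.0493% in control libraries (exact two-sided permutation p = 0.0286). Macrophage and monocyte markers, 10 of 12 in the table and all detected, summed to 339 to 547 CPM in BPA and 633 to 879 CPM in control libraries. All 10 estimates were below 0 and 1 was called lower. Stromal progenitor markers, all 8 detected, summed to 2403 to 4704 CPM in BPA and 4517 to 7265 CPM in control libraries. All 8 estimates were below 0 and 1 was called lower. Smooth muscle markers, all 8 detected, summed to 623 to 965 CPM in BPA and 456 to 526 CPM in control libraries. All 8 estimates were above 0 and 1 was called higher. Of all 13535 genes tested 82 were called higher and 14 lower. Skeletal muscle markers summed to 43.1, 331, 125 and 963 CPM in BPA 918, 922, 941 and 977, with all 7 detected, and to 34.9 to 77.6 CPM in controls.

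In visceral fat the comparison of BPA with control ewes called no gene. The share called was 0.0% of 14774 genes, and 7.47% had an unadjusted p under 0.05. DESeq2 called 5 genes, none of them a member. PER2 was the member with the smallest p. It had 97.3, 100.4, 152.3 and 143.7 CPM in visceral BPA 910, 918, 977 and 984, against 79.3, 82.9, 89.6 and 69.8 CPM in visceral controls 902, 908, 924 and 928. All 4 BPA libraries lay above all 4 controls, as for 2.06% of genes, and the log2 fold change was 0.62 ± 0.18 (adjusted p = 0.658). Without visceral BPA 977 it was 0.49 (adjusted p = 0.989).

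PER1 and CRY2 had the next largest estimates in visceral fat, and neither passed. PER1 had 182, 234, 285 and 328 CPM in visceral BPA, against 193, 153, 222 and 203 CPM in visceral control libraries (log2 0.42 ± 0.20, adjusted p = 0.658). Of the BPA libraries 910 lay among the controls and the other 3 above them. CRY2 had 71.0, 75.8, 120.3 and 51.1 CPM in visceral BPA, against 67.4, 49.5, 63.1 and 45.7 CPM in visceral control fat (log2 0.50 ± 0.25, adjusted p = 0.658), and the estimate was 0.22 without visceral BPA 977. NR1D1, the haem-binding repressor of ARNTL, had 69.1, 59.3, 47.7 and 15.8 CPM in visceral BPA, against 84.1, 46.1, 51.7 and 43.5 CPM in visceral control fat. Visceral BPA 984 held the lowest NR1D1 and the lowest DBP of its depot together with the highest PER1 and NR1D2. Of 5 glucocorticoid-responsive genes, FKBP5 (205 CPM), SGK1 (61.3), ZBTB16 (360) and TSC22D3 (508) were also highest of the depot in that library. For TSC22D3 visceral control 928 was close, at 498 CPM. PDK4 was at 1355 CPM there, under the 1525 CPM of visceral control 928. CLOCK had 247, 152, 86.4 and 192 CPM in visceral BPA, against 202, 238, 183 and 203 CPM in visceral control fat, and visceral BPA 977 was the lowest of all 16 libraries. That library also had the lowest sum of adipocyte markers in visceral fat, at 20984 CPM, and the highest of mesothelial markers, at 312 CPM. Its total was the smallest in visceral fat, at 6.77 M counts. Its share of counts in genes under 200 bases was the largest there, at 1.13% against 0.253 to 0.681% in the other visceral libraries. Smooth muscle markers summed to 733 to 3825 CPM in visceral BPA and 397 to 1218 CPM in visceral control libraries. Endothelial markers, all 8 detected, summed to 2516 to 2844 CPM in visceral BPA and 2943 to 3203 CPM in visceral control libraries, with 7 of 8 estimates below 0 and none called. The part of these genes, lists and library measures in the values was not tested. Apart from PER2, PER1 and CRY2, log2 fold changes ran from -0.29 for CLOCK to 0.22 for DBP, with NR1D2 at -0.26, NR1D1 at -0.23, CRY1 at -0.05, PER3 at -0.01 and BHLHE40 at 0.16 (adjusted p from 0.699 to 0.989). Over the 10 members 5 estimates were above 0, beside 50.3% of genes, and the median was 0.07.

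**Figure D4:**
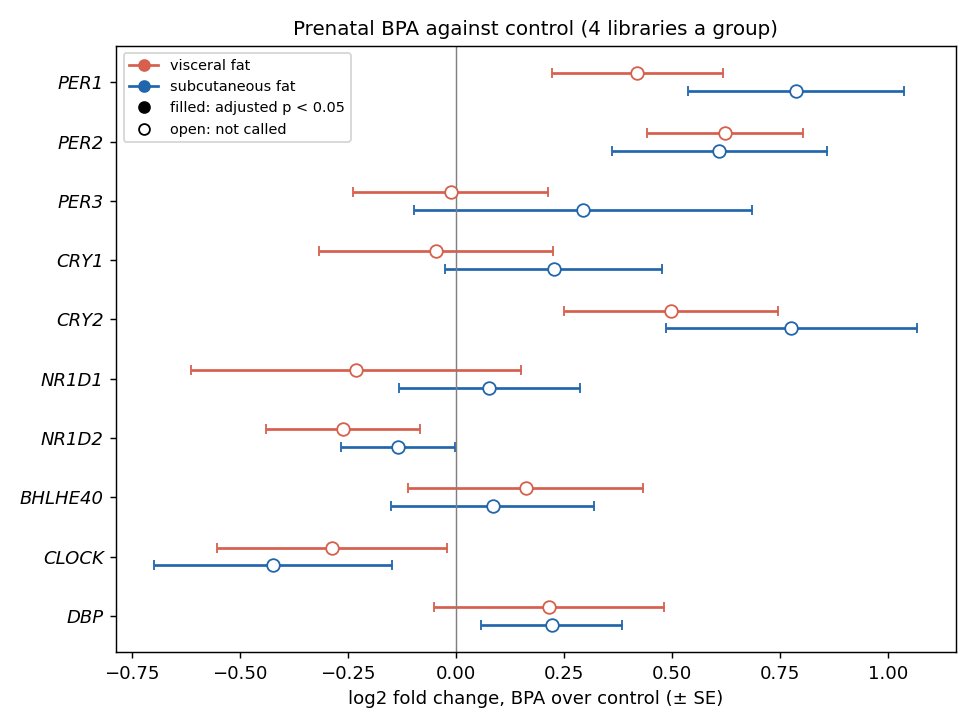
Log2 fold change of BPA over control for each clock gene in visceral and in subcutaneous fat, with bars of ± SE from 4 libraries a group. All points are open since no member passed an adjusted p of 0.05. PER1, PER2 and CRY2 lie between 0.42 and 0.79 in both depots, and CLOCK and NR1D2 lie below 0 in both.

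Whether the BPA effect differed between depots was tested as an interaction over all 16 libraries. No member passed, and 0.0% of 14793 genes were called by edgeR, while 6.2% had an unadjusted p under 0.05, none of them a member, and DESeq2 called 11. The visceral effect minus the subcutaneous effect ran from -0.37 ± 0.34 for PER1 (adjusted p = 0.982) to 0.14 for CLOCK on the log2 scale. For PER2 the difference was 0.01, for PER3 and NR1D1 -0.31 each, for CRY2 -0.28, for CRY1 -0.27, for NR1D2 -0.12, for DBP -0.01 and for BHLHE40 0.07.

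Beside the members, 25 further clock genes were counted in 3 lists, of which 23 were tested and RORB and FBXL21P had too few counts. None of the 23 passed the test for BPA in either depot. ARNTL, the partner of CLOCK, had 16.0, 21.3, 31.7 and 15.5 CPM in visceral BPA, against 12.6, 13.6, 22.0 and 17.8 CPM in visceral control fat (log2 0.35 ± 0.27, adjusted p = 0.728). It had 28.3, 25.8, 16.2 and 19.6 CPM in subcutaneous BPA, against 19.5, 21.4, 18.8 and 12.5 CPM in subcutaneous control fat (log2 0.32 ± 0.22, adjusted p = 0.560). Both pairs of groups overlapped.

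Between depots 2 of the 23 genes passed, both lower in visceral fat in both treatments and none higher. Of all genes 9.07% in BPA ewes and 13.3% in control ewes were called in either direction, and 3.94% and 6.16% were called lower. Called lower in both treatments were 2.0% of the 13657 genes tested in both. For calls in either direction within a treatment 2 of 23 lies near the background, and 2 genes are too few to describe the 23 as a set. NAMPT, the NAD-producing enzyme whose transcription the clock drives, had 41.9, 28.2, 20.1 and 35.4 CPM in visceral BPA, against 69.3, 117.3, 62.3 and 60.7 CPM in subcutaneous BPA (log2 -1.30 ± 0.27, adjusted p = 0.0184). In control ewes NAMPT had 51.3, 57.5, 41.5 and 49.9 CPM in visceral fat, against 79.6, 64.5, 76.1 and 65.8 CPM in subcutaneous fat (log2 -0.51 ± 0.14, adjusted p = 0.0356). In both treatments the depots did not overlap. LOC443240, which the reference table pairs with the symbol CSNK1E, a casein kinase that marks PER proteins for breakdown, had a log2 fold change of -0.74 ± 0.19 in BPA ewes (adjusted p = 0.0369) and -0.77 ± 0.17 in control ewes (adjusted p = 0.0139). Of 5 glucocorticoid-responsive genes in the table, TSC22D3 was higher in visceral fat, by log2 1.12 in BPA ewes (adjusted p = 0.0424) and 1.14 in control ewes (adjusted p = 0.0207), and the other 4 were not called. Of these, PDK4 lay close to the threshold, at log2 0.77 ± 0.23 in BPA ewes (adjusted p = 0.0570) and 1.02 ± 0.31 in control ewes (adjusted p = 0.0506). None of the 5 was called for BPA. SGK1 had the smallest p of the 5 for BPA, in subcutaneous fat, at log2 -1.40 ± 0.33 (adjusted p = 0.0976). In that comparison 3 of the 5 estimates were above 0.

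The members also varied between libraries of the same group. NR1D1 and PER3 had the largest spread within groups, with SDs of 0.57 and 0.56 on the log2 scale, and NR1D2 the smallest at 0.21. Within each depot, 10 pairs of clock genes were correlated over its 8 libraries, BPA and control together with no group mean subtracted, which makes 20 relations with exact permutation p-values adjusted by Benjamini-Hochberg. PER1 and PER2 went together in subcutaneous fat, with Pearson's r = 0.926 (exact permutation p = 0.00295, adjusted 0.0468) and Spearman's rho = 0.952 (exact permutation p = 0.00114, adjusted 0.0228). Without control 902 and BPA 922, the libraries farthest from the median, r was 0.679. In visceral fat the same pair had r = 0.807 (exact permutation p = 0.0172, adjusted 0.0730) and rho = 0.690, and r was 0.784 without the farthest 2 libraries. As a description over 4 libraries each, r of this pair in visceral fat was 0.880 in BPA and 0.011 in control libraries, and in subcutaneous fat it was 0.912 in BPA and 0.953 in control libraries.

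PER2 and PER3 in subcutaneous fat had r = 0.836 (exact permutation p = 0.00585, adjusted 0.0468) and rho = 0.833 (adjusted 0.140), and r was 0.526 without the same 2 libraries. CLOCK and its partner ARNTL went in opposite directions in visceral fat, with r = -0.868 (exact permutation p = 0.00702, adjusted 0.0468) and rho = -0.667 (adjusted 0.277). That relation rested on visceral BPA 977 and 918, without which r was -0.464, and in subcutaneous fat r was -0.02 (exact permutation p = 0.962). NR1D1 and ARNTL, a repressor and its target, had r = -0.02 in visceral fat (exact permutation p = 0.959) and -0.40 in subcutaneous fat (exact permutation p = 0.324), where it was 0.185 over the 4 BPA and -0.977 over the 4 control libraries. The other relations did not pass the adjusted threshold.

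With each group's mean subtracted, likeness was described over all 16 libraries, which share title numbers between depots, so no p is given. By likeness among 14792 genes, PER2 was at rank 7 for PER1, and PER1 at rank 38 for PER2 (r = 0.822). PER3 was at rank 14 for PER2, and PER2 at rank 5 for PER3 (r = 0.857). NR1D1 and DBP had r = 0.645, which put DBP at rank 199 for NR1D1 and NR1D1 at rank 740 for DBP. CRY2 and BHLHE40 had r = 0.712, which put BHLHE40 only at rank 712 for CRY2 and CRY2 at rank 367 for BHLHE40. CLOCK went against the period genes, with r = -0.576 for PER1, -0.605 for PER2 and -0.688 for PER3. In the order of all genes for CLOCK these lay at percentiles 9.2, 7.6 and 3.6. Its r was also negative with CRY2 (-0.528), BHLHE40 (-0.481) and DBP (-0.478), near 0 with NR1D1 (-0.017) and positive with CRY1 (0.142) and NR1D2 (0.427). Of the 45 pairs of members 28 had a positive r, and the median was 0.19. Between a member and all genes, the median r ran from -0.019 for BHLHE40 to 0.017 for CLOCK. The 90th percentile ran from 0.41 for NR1D1 to 0.60 for CRY2, so many genes outside the clock were as alike. The genes most like PER1 were SPIRE2 (r = 0.903), LRRC47 (0.888) and KLF15 (0.850), those most like PER2 were PHTF1 (0.945), CMTR1 (0.931) and SFPQ (0.903), and those most like CLOCK were UBE2W (0.954), PLPP3 (0.937) and ANXA5 (0.910). For CRY2 they were TNNT3 (0.951), ZC3H3 (0.931) and PHLPP2 (0.925). TNNT3 is one of the skeletal muscle markers, whose summed levels are given above for each subcutaneous BPA library, and the part of muscle RNA in the level of CRY2 was not tested.

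**Figure D5:**
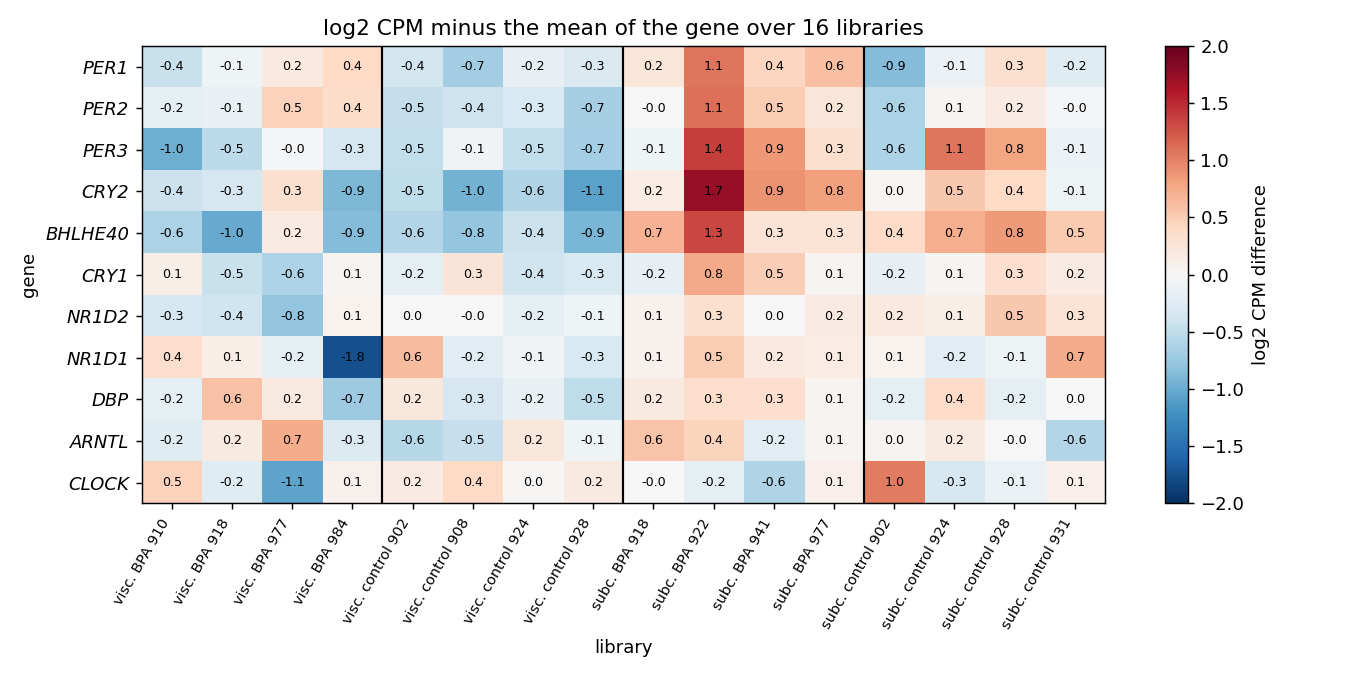
Log2 CPM of the 10 clock genes and ARNTL in each of the 16 libraries, minus the mean of the gene over all libraries; red is higher, blue is lower. PER1, PER2, PER3, CRY2 and BHLHE40 are red together in subcutaneous BPA 922, while CLOCK is blue in visceral BPA 977 and red in subcutaneous control 902.

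Reads of a pair of members may be shared with a neighbour. By the deposited exon coordinates NR1D1 shares 200 exonic bases, 10.8% of its length, with THRA on the opposite strand. BHLHE40 shares 134 bases, 10.8%, with LOC105603426 on the opposite strand. The strand setting of the counting is not given in the sources used here, so reads there cannot be told apart. THRA averaged 140 to 154 CPM over the 4 groups and was not called in any comparison. LOC105603426 averaged 0.903 to 1.98 CPM, against 16.4 to 43.1 CPM for BHLHE40.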

How the data were processed

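The submitters' processing notes name FastQC 0.11.5 and MultiQC 0.9 (read quality), STAR 2.6.0c (alignment) and featureCounts of Subread 1.6.1 (counting). Libraries were made with a SMARTer low-input kit after rRNA depletion, per the labels' protocols. The deposited values carry the name normalized counts. They were nonetheless used as raw counts, since 0 of them are other than whole numbers and totals differ. Neither build nor annotation nor strand setting is given in the sources used here, so no positions are printed. Gene lengths are the deposited ones. Overlapping genes come from the exon coordinates deposited with the counts, and the symbol CSNK1E from a RefSeq table of the ARS-UI_Ramb_v3.0 assembly.

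Genes were filtered with filterByExpr (a count of 10, 15 in total), scaled by TMM and compared by edgeR 4.0.16 (quasi-likelihood, two-sided, R 4.3.3) on the 8 libraries of each comparison or all 16 for the interaction. P-values were adjusted by Benjamini-Hochberg over all genes tested and called under 0.05. The SE of a log2 fold change is its size over the root of F. Log2 CPM for correlations used a prior count of 2, and permutations were enumerated exactly. Scripts were tested on simulated data. The members, the gene lists and the pairs correlated were chosen with earlier results of these data known. Estimates of all 10 members are given in each comparison, singly or as a range. Of the other clock genes, ARNTL and those called are given values, and marker lists are given where their sums did not overlap between groups or where a marker was called.

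Title numbers were checked as pairs by correlating deviations from group means. The correlation was 0.287, 0.400 and 0.332 for the 3 control numbers, each library matching its own number best, so control numbers were taken as pairs. The main tests nonetheless used no block for the number, in either treatment or in the interaction. Their p-values are therefore unpaired, and the number entered only the alternatives with a block. BPA ewes have only 2 such numbers. The correlation was 0.167 for 918, whose libraries matched each other best, and 0.031 for 977, whose libraries did not, so BPA numbers were not taken as pairs. Alternatives were DESeq2 1.42.0, its size factors, upper quartile factors, no filter, a filter of 50 counts in 4 libraries, a fit of all 16 libraries, limma 3.58.1 voom with and without the number as a random block, a fixed block, thinning, and omission of each library or of the 3 that stood apart.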

Additional observations from a re-analysis of the deposited data

Results flagged for a closer look

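None of the 10 clock genes had, in any of its 4 groups, a library far from the other 3 by Dixon's test at its 95% critical value. Of 84 sets of 4 libraries tested in all, 7 held such a library. Chance flags about 1 in 20 sets at this critical value. The 7 cannot be set against that rate, since the 84 sets were a chosen part of those described. Only 20 of them were of other clock genes, and CIART was among the genes chosen after its values were seen. NAMPT was at 117 CPM in subcutaneous BPA 922, against 60.7 to 69.3 CPM in the other 3 libraries of its group, and the same library was the highest of its depot for 6 clock genes. CIART, a repressor of the CLOCK pair that was picked after its values were seen, was at 29.2 CPM in visceral BPA 984, against 4.02 to 5.25 CPM in the other 3. Visceral BPA 984 also had the lowest NR1D1 of all 16 libraries and the lowest DBP. Summed adipocyte markers were at 20984 CPM in visceral BPA 977, against 31674 to 33683 CPM in the others of its group, and summed mesothelial markers at 312 CPM, against 28.1 to 72.6 CPM. That library had the lowest CLOCK of all 16. Summed stromal progenitor markers were at 4704 CPM in subcutaneous BPA 918, against 2403 to 2492 CPM in the others, and at 7265 CPM in subcutaneous control 902, against 4517 to 4923 CPM. Control 902 had the highest CLOCK and the lowest PER1, PER2 and PER3 of its depot. Summed smooth muscle markers were at 3825 CPM in visceral BPA 918, against 733 to 1240 CPM in the others.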

How the results depend on the processing

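BHLHE40 and CRY2 in control ewes were called lower in visceral fat under each alternative and each omission of a library, with log2 fold changes of -1.39 to -1.22 and -1.10 to -0.89 over the omissions. No alternative called a member for BPA in either depot or for the difference between depots. With the number as a fixed block, PER3 was the one call gained in control ewes, and the random block changed no member's call there. In BPA ewes, where number 918 matched itself and 977 did not, the fixed block left 0 members called, with BHLHE40 at -0.90 (adjusted p = 0.136), CRY2 at -0.49 (0.184) and PER3 at -0.40 (0.382). It rests on numbers 918 and 977. PER3 there also missed the threshold with the random block (adjusted p = 0.0520). NR1D2 in BPA ewes was called by the fit of all 16 libraries (-0.48, adjusted p = 0.0443) and by voom without (-0.51, 0.0407) and with the random block (-0.54, 0.0213). Causes of these changes were not tested.

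Counts of genes called moved as well. For BPA in subcutaneous fat, 96 genes became 464 with DESeq2, 46 in the fit of all 16 libraries, 54 with the filter of 50 counts, 173 without a filter, 1 with voom, 1 with the random block, 0 without the libraries that stood apart, and 32 to 128 without single libraries. For BPA in visceral fat, 0 became 5 with DESeq2, as 0 became 11 for the difference between depots. For the depots in BPA ewes, 1250 became 2197 with DESeq2, 2408 in the fit of all 16, 1971 with voom, 2300 with the random block, 892 with the fixed block, 2206 without visceral BPA 977, and 369 to 2206 without single libraries. In control ewes, 1928 became 2772 with DESeq2, 2631 with the fixed block, 2348 with the random block, 1138 without subcutaneous controls 902 and 924, and 1043 to 1755 without single libraries. Members called were 0 to 3 without single libraries in BPA ewes and 2 to 4 in control ewes.

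Directions that turned belonged to estimates that had not passed. Between depots in BPA ewes, CLOCK turned to -0.021 with voom, -0.69 with the fixed block and -0.11 with the random block, and ran from -0.19 to 0.28 without single libraries. DBP turned to 0.28 and PER2 to 0.047 with the fixed block. In control ewes, CLOCK turned to 0.021 with voom, 0.0045 with the random block and 0.20 without controls 902 and 924, and ran from -0.23 to 0.31 without single libraries. NR1D1 turned to 0.18 with the fixed block and ran from -0.36 to 0.16, and PER1 ran from -0.37 to 0.024. For BPA in visceral fat, BHLHE40 turned to -0.17 without BPA 977 (-0.17 to 0.30 without single libraries), CRY1 to 0.016 with the random block and 0.060 without BPA 977 (-0.17 to 0.11), and PER3 to 0.044 with the random block (-0.18 to 0.13). Without single libraries NR1D1 ran from -0.47 to 0.060 and DBP from -0.023 to 0.40. For BPA in subcutaneous fat, NR1D1 turned to -0.13 without controls 902 and 924 (-0.030 to 0.33 without single libraries), BHLHE40 ran from -0.20 to 0.22 and PER3 from -0.014 to 0.59.

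With 4 libraries a group and 3.05 to 4.83 M counts in the shallowest group, a missed threshold does not show equal levels. CRY1 had the fewest counts of the 10, at 40 to 128 a library. A prior count of 0.5 changed the sign of 0 of the 20 correlations. The order of members by CPM differs from that per kb, with CRY1 lowest in both.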
